A study of Mus musculus with 8 samples.

Results

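The genes described here carry names of proteins of the cytosolic ribosome, the particle that translates nearly all cellular mRNA. They were chosen by name, as Rpl or Rps followed by a number and at most 2 letters, together with Rplp0, Rplp1, Rplp2 and Rpsa, and by an average of at least 10 RPKM over the 8 libraries. RPKM is the number of reads of a gene scaled by its length in kilobases and by the reads of the library. Of 46959 genes in the table, 84 carried such a name and 51 reached that mean. These were 29 named for the large subunit (Rpl and Rplp) and 22 for the small subunit (Rps). Among the latter, GENCODE M21 lists Rps4l as a transcribed processed pseudogene. All 51 passed the filter of the test, which was 1 RPKM in at least 2 libraries. The mean of 5 of them (Rpl10, Rpl3, Rpl35a, Rpl39 and Rps15a) was under 10 RPKM in at least 1 group, so that they met the rule through the groups where they were higher.

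The cells were sorted by flow cytometry from islets of adult mice and fell into 3 groups: beta cells (3 libraries, 2 female and 1 male), alpha cells (3 libraries, 1 female and 2 male), and alpha transdifferentiated cells (2 libraries, 1 of each sex). Per the labels, the animals were offspring of crosses between Ins1-H2b-mCherry, Gcg-cre and a floxed YFP allele. The Ins1 promoter drives a red nuclear protein in cells with an active insulin gene, and the Cre, made where the glucagon gene is on, switches on YFP for good in a cell and its descendants. The transdifferentiated cells are described as beta cells that carry the lineage label of alpha cells, so that this group rests on how strictly the Cre was limited to alpha cells. Each library came from a pool of several animals of 1 sex, and all islets were cultured overnight before dissociation, in the reference groups too. The design text also names pools of bitransgenic females without saying which libraries these are. The libraries differed in depth: 1244227 and 2167332 recovered reads in the transdifferentiated group, 12911871 to 14094412 in the alpha group and 14336649 to 21395280 in the beta group. A ribosomal protein gene therefore rested on a median of 62 and 126 reads in the transdifferentiated libraries, where 32 and 24 of the 51 genes had fewer than 100, and on at least 154 reads in every other library.

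Ribosomal proteins are assembled with ribosomal RNA in the nucleolus, mostly as 1 copy of each per ribosome, and cells usually make their mRNAs in parallel. Most of these mRNAs start with a short run of pyrimidines, the 5′ terminal oligopyrimidine (TOP) tract, through which mTOR signalling adjusts their translation. Alpha and beta cells both devote much of their translation to 1 hormone precursor, preproglucagon or preproinsulin.

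Part of the promoters carry a run of pyrimidines near the annotated start. It was sought on both sides of the start, so it need not lie in the mRNA and need not be a TOP tract. The run printed for Rpl4 lies wholly before the annotated start. Windows of 300 bases, from 250 before to 50 after an annotated start, were matched for 37 of the 51 genes (46 windows, RefSeq, GRCm38.p6). The following 60 bases, from 40 before to 20 after the start, belong to genes that differed between groups in the results below, with the longest pyrimidine run near the start in capitals. Where a gene had several starts, the one with the longest run is shown:

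Rpl4, chr9:64173347-64173406 (+): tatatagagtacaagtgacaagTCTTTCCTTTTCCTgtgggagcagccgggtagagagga
Rplp2, chr7:141447611-141447670 (+): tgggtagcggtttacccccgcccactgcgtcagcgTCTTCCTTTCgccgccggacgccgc
Rps24, chr14:24490638-24490697 (+): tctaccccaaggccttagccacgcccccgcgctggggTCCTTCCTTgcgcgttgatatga
Rpl35a, chr16:33056442-33056501 (+): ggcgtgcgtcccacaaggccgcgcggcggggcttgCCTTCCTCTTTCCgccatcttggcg
Rps21, chr2:180257339-180257398 (+): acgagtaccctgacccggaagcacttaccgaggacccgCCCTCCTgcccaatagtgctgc
Rpl15, chr14:18270967-18271026 (-): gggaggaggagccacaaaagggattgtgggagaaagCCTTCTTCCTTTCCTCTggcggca

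The runs were 14, 10, 9, 13, 7 and 17 bases long, in the order printed. At the starts not shown they were 7 bases for Rps24, 4 and 5 for Rpl35a and 5 for Rps21. Rps3 and Rps27l, which also differed between groups and are not printed, had runs of 6 bases and of 9 and 5 bases. They occur in genes that were higher in alpha cells (Rplp2, Rps24, Rpl35a, Rps21), lower in alpha cells (Rpl4) and lower in transdifferentiated cells (Rpl15). Between 30 bases before and 20 after the start, 47.8% of the 46 member windows held a run of at least 8 pyrimidines (22 windows), against 20.2% of all 32851 promoter windows. The median of the longest run was 7 bases in the member windows and 5 in all windows. The letters CCGGAAG, a core to which factors of the ETS family bind, stood on either strand in 41.3% of the member windows (18 genes, Rps21 and Rpl15 among them) against 8.86% of all windows. AAGATGG, part of the motif of YY1, whose first letters can overlap the last ones of CCGGAAG, was found in 21.7% against 6.34%. TATAAA was found in 8.7% against 13.6%, CTTTCC in 52.2% against 26.6% and CTTTTC in 23.9% against 21.8%. A match describes the letters in these windows and does not show that a factor was bound.

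The measured level of these genes varied widely from gene to gene, although the ribosome holds most of the proteins in equal number. Mean RPKM over the 8 libraries ran from 10.07 (Rpl10) to 537.1 (Rpl8), with a median of 33.43. The highest were Rpl8 at 537.1, Rpl4 at 513.3 and Rpl13a at 378.5 RPKM, and the lowest were Rpl10 at 10.07, Rpl3 at 10.16 and Rpl39 at 10.18 RPKM. There were 14 genes at or above 100 RPKM, among them Rpl8, Rpl4, Rpl13a, Rplp1, Rps15, Rpl32, Rplp0, Rps26, Rpl41, Rps14, Rps21 and Rps24. Another 22 lay between 20 and 100 RPKM and 15 below 20 RPKM. Small subunit genes had a median of 56.74 and large subunit genes a median of 32.02 RPKM.

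**Figure D1:**
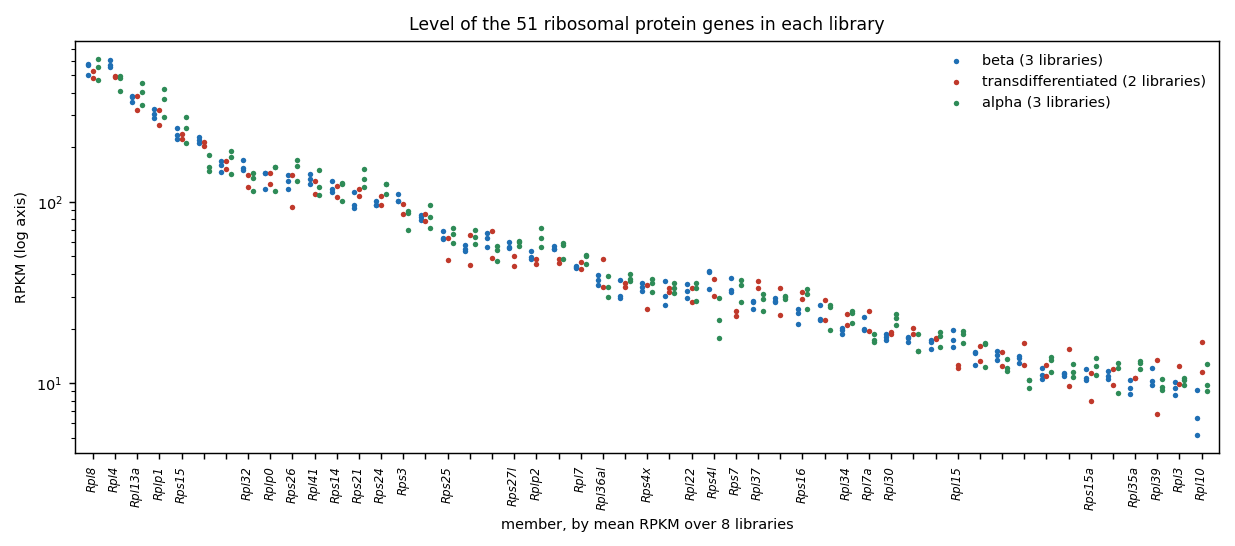
RPKM (log axis) of each of the 51 genes in each library, ordered by the mean over 8 libraries, with symbols for genes named in the text; each point is 1 library and colours mark the 3 groups. Levels run from about 10 to over 500 RPKM between genes, while the points of a gene lie close together in most cases, with Rpl10 at the far right among the most spread.

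The 33 names that fell under the mean of 10 RPKM include proteins that every ribosome needs. Rps6, the small subunit protein phosphorylated by S6 kinases, averaged 1.227 RPKM, and Rpsa, a small subunit protein also known as the laminin receptor, 1.952 RPKM. The large subunit proteins Rpl5 and Rpl11, which carry a small ribosomal RNA into the ribosome and bind Mdm2, averaged 1.899 and 1.699 RPKM. Just under the threshold stood Rpl36 at 9.972 and Rpl18 at 9.685 RPKM, and just above it Rpl10, Rpl3 and Rpl39. Rpl36 rested on 9 and 3 reads in the transdifferentiated libraries.

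Much of the sequence of these mRNAs occurs in other genes as well, mostly copies of the same mRNA elsewhere in the genome, and the sources used here do not give how reads with several matches were counted. Of all 50-base stretches of a gene's mRNA, a median of 39% in the 51 genes and 70% in the names under 10 RPKM was also found in the transcripts of another gene (GENCODE M21). That median was 31.2% in the 14 genes at or above 100 RPKM and 64.3% in the 15 genes below 20 RPKM. Rpl8 (6.5%) and Rps3 (3%) were nearly free of such stretches, whereas Rpl10 (85.4%) and Rpl3 (85.6%) were mostly made of them. Across the 83 names above 0, Spearman's rho between the mean level and the shared share was -0.43, and across the 51 genes -0.36, a description over genes that share libraries and are not independent. The length that RPKM divides by also differed from that of the mRNA. It had a median of 912 bases in the 14 genes at or above 100 RPKM and 2491 in the 15 genes below 20 RPKM. Their mRNAs had medians of 789 and 886 bases. Levels of different genes in RPKM are therefore not levels of their mRNAs, and genes with many shared stretches may have lost or gained reads. The effects of length and shared sequence on the levels were not tested. Between groups, the alpha against beta difference of a gene had a rho of 0.13 with its shared share over the 51 genes.

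**Figure D2:**
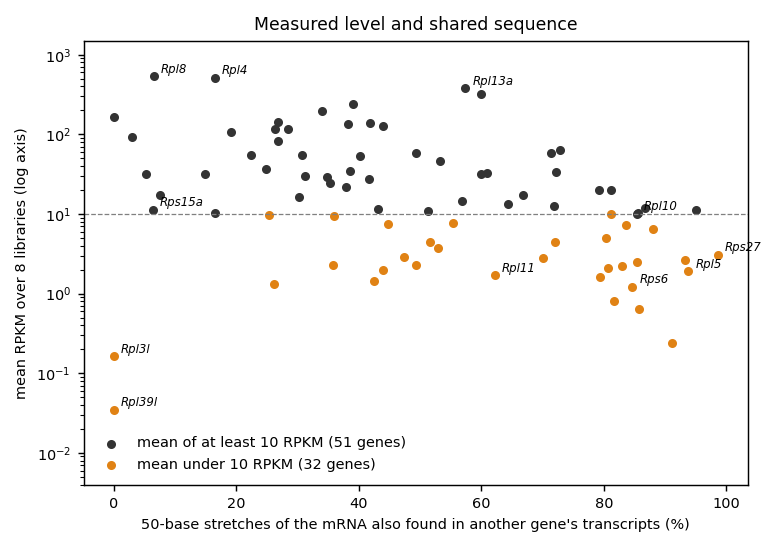
Mean RPKM over 8 libraries (log axis) against the percent of 50-base stretches of each mRNA that occur in the transcripts of another gene; each point is a gene, dark at or above the mean of 10 RPKM (dashed line) and orange below it. Rpl8 sits high at the left, while Rpl10 lies at the threshold on the right.

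Summed over all 51 genes, the level was of similar size in the 3 groups. Their summed RPKM was 4549, 4254 and 4556 in the beta libraries, 4035 and 4360 in the transdifferentiated libraries, and 4913, 4560 and 3867 in those of alpha cells. The means were 4453 ± 172.4 (SD, n = 3), 4198 ± 229.5 (SD, n = 2) and 4447 ± 532.4 (SD, n = 3). As deposited, the ranges overlapped for every pair of groups, and alpha 3 was the lowest library of all. With median-ratio scaling, which sets the typical gene equal between libraries, the transdifferentiated libraries (3587 and 3993) lay below the beta (4151 to 4574) and alpha libraries (4049 to 5429). They made up 0.557%, 0.527% and 0.547% of the reads of beta, transdifferentiated and alpha cells. Large subunit genes summed to 2811 ± 130.3, 2617 ± 146.7 and 2789 ± 336, and small subunit genes to 1643 ± 46.2, 1580 ± 82.71 and 1657 ± 196.6 RPKM in the same order (SD). In sorted bulk cells, fewer cells of a type and less RNA per cell cannot be told apart, and a share of the reads is not an amount per cell.

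These shares depend on what else was in the library. The hormone genes Gcg, Ins1, Ins2, Iapp, Ppy, Pyy and Sst, with Ttr, which encodes the carrier protein transthyretin and is counted with them below, took 26.86% to 31.42% of all reads in alpha cells, 16.73% to 21.34% in beta cells and 16.07% to 16.5% in transdifferentiated cells. Rescaled without them, the summed RPKM was 6239 in alpha (5317 to 7164), 5503 in beta (5109 to 5793) and 5015 in transdifferentiated cells (4808 and 5222), where the transdifferentiated libraries overlapped with the beta but not with the alpha libraries. The reads recovered from the table add up to the library size behind the RPKM, so these values were not adjusted for such differences in composition. Each split of higher and lower genes is therefore given below with other scalings.

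Markers of the sorted types followed the labels: all 7 alpha cell markers tested were higher in alpha cells than in beta cells, and all 8 beta cell markers were lower. In transdifferentiated cells the alpha cell markers summed to 20220 and 20320 RPKM, against 641.8 to 1986 in beta and 175800 to 204200 in alpha libraries, with all 7 called against either group. Their beta cell markers summed to 140000 and 147500 RPKM, against 186200 to 242500 in beta and 2492 to 3188 in alpha libraries, with 4 of 8 called lower than in beta and all 8 higher than in alpha cells. Of 12 immune cell markers, 9 were tested, and all 9 were lower in alpha cells than in beta cells. Their summed RPKM was 82.11 to 96.34 in beta, 7.83 to 27.9 in transdifferentiated (Ptprc and Cd52 at 0) and 3.859 to 6.023 in alpha libraries. Duct markers (7 genes) summed to 271.7 to 409.2, 269.5 to 325 and 714.8 to 1741 RPKM in the same order, with 2 called higher and 1 lower in alpha cells. Acinar markers (10 genes) varied most within groups, from 127.2 to 3693, 339.9 to 979.3 and 46.04 to 2709 RPKM, and 0 of the 9 tested were called by limma in any comparison of cell groups, nor did any reach an unadjusted p under 0.05. Delta, PP and epsilon cell markers (6 genes) summed to 1039 to 2165, 11210 to 14530 and 9331 to 16220 RPKM. The part of these other cell types in the differences below was not tested.

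Spread between libraries was small in most of these genes. The SD of log2 values over the 8 libraries had a median of 0.174 in the 51 genes and of 0.252 in all 4854 genes averaging at least 10 RPKM. Rpl7, a large subunit protein, was the steadiest at 0.096 (42.75 to 50.92 RPKM), and Rpl10, a late-joining large subunit protein needed for the subunits to pair, the most variable at 0.51 (5.195 to 16.83 RPKM). The median size of the fitted difference between alpha and beta cells was 0.15 on the log2(RPKM + 0.5) scale, against 0.38 in genes of that level. It was 0.11 against 0.19 between transdifferentiated and beta cells, and 0.15 against 0.30 between transdifferentiated and alpha cells. In these comparisons 49, 50 and 50 of the 51 genes (96.1%, 98% and 98%) stayed within a difference of 1.5-fold, against 69.1%, 89.9% and 77.5% of genes of that level. The 95% interval lay within 2-fold for the same numbers of genes, against 75%, 89.3% and 80.3% of genes of that level. Intervals that involve transdifferentiated cells do not allow separately for the low read counts of their libraries. The comparisons share libraries, so that they are not independent of one another.

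**Figure D3:**
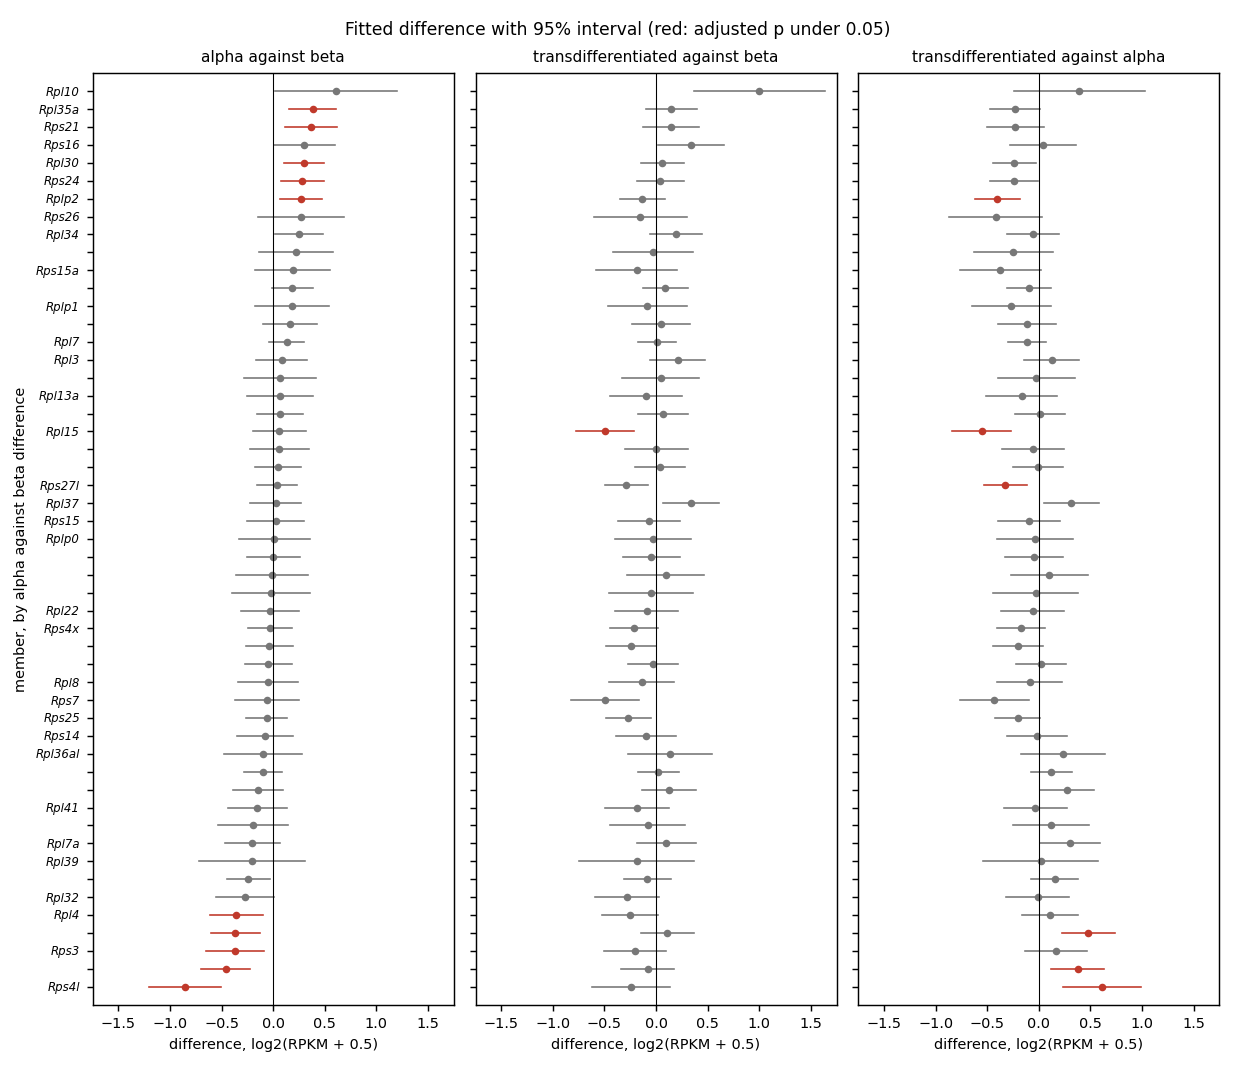
Fitted difference on the log2(RPKM + 0.5) scale with its 95% interval for each of the 51 genes in the 3 comparisons of cell groups, in the order of the alpha against beta difference, with symbols for genes named in the text; red marks an adjusted p under 0.05. In most rows the interval crosses 0, with 10, 1 and 6 genes in red from left to right.

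The comparison of alpha with beta cells asks how the normal cell types differ. It called 10 of the 51 genes (19.6%), 5 higher and 5 lower in alpha cells, and 9 of the 46 genes that averaged at least 10 RPKM in every group, 4 higher and 5 lower. The test called 43.6% of all 13172 genes (16.9% higher, 26.7% lower) and 54.2% of the 4854 genes averaging at least 10 RPKM. The median difference of the 51 genes was 0.01, against -0.05 over all genes tested and -0.24 in genes averaging at least 10 RPKM. In 15 of the 51 genes the alpha and beta libraries did not overlap (8 higher and 7 lower in alpha cells), against 60.6% of all genes tested (24.8% and 35.8%).

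Rps4l differed most among the genes called lower in alpha cells. It is a relative of Rps4x, a small subunit protein, and GENCODE M21 lists it as a transcribed processed pseudogene (chr6:148354656-148355598). Its RPKM was 41.77, 33.25 and 40.97 in beta, 37.49 and 30.33 in transdifferentiated, and 29.32, 22.35 and 17.83 in alpha cells. Every alpha library lay below every other library. The difference between alpha and beta cells was -0.85 ± 0.15 (log2, SE; adjusted p = 0.00383), and it kept its direction and its call in all 22 alternative settings, from -0.98 to -0.55. The ratio of Rps4l to Rps4x was 0.9835 to 1.296 in the beta libraries, against 0.5623 to 0.8211 in the alpha and 1.072 and 1.178 in the transdifferentiated ones, and Rps4x itself was not called (-0.03, adjusted p = 0.789).

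Among the other genes lower in alpha cells were Rps3 and Rpl4. Rps3 lines the entry of the mRNA channel and also acts in DNA repair, and it measured 110.1, 101.4 and 101.7 RPKM in beta against 89.13, 86.84 and 70.13 in alpha cells. The groups did not overlap, the difference was -0.37 ± 0.12 (SE, adjusted p = 0.0401), with the transdifferentiated libraries at 85.32 and 97.03 RPKM. The call was lost in 10 of 22 alternative settings, and the difference was -0.20 without hormone genes, -0.17 without alpha 3 and -0.01 after quantile normalization (adjusted p = 0.242, 0.297 and 0.954). Rpl4, with its promoter shown above, is a core protein of the large subunit whose loop reaches the exit tunnel. It measured 610.1, 554.3 and 572.5 RPKM in beta, 487.1 and 495 in transdifferentiated, and 483, 496.8 and 407.5 in alpha cells, a difference of -0.36 ± 0.11 between alpha and beta (adjusted p = 0.0329; lost in 9 of 22 settings). All 3 beta libraries were above all others. The sixth lowest difference, in Rpl32, was -0.27 ± 0.12 and not called (adjusted p = 0.108).

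Of the 5 genes higher in alpha cells, 3 belong to the large subunit. Rpl35a, a large subunit protein mutated in some cases of Diamond-Blackfan anaemia, measured 8.755, 9.423 and 10.34 RPKM in beta, 10.71 and 10.6 in transdifferentiated, and 12.01, 13.26 and 12.84 in alpha cells. The 3 alpha libraries were the highest, and the difference from beta cells was 0.38 ± 0.10 (SE, adjusted p = 0.0167). Its beta mean of 9.507 RPKM is under the threshold of the rule, so this gene was chosen in part through its higher alpha values (mean 12.7). Rpl30 measured 17.23, 17.95 and 18.73 RPKM in beta, 18.62 and 19.25 in transdifferentiated, and 23, 24.02 and 21 in alpha cells (0.30 ± 0.08, adjusted p = 0.023). Again all alpha libraries stood above all others. Rplp2 belongs to the P stalk, the flexible arm of the large subunit that recruits the elongation factors. It measured 49.87, 48.58 and 53.68 RPKM in beta, 48.48 and 45.64 in transdifferentiated, and 72.02, 63.41 and 56.15 in alpha cells (0.27 ± 0.09 for alpha against beta, adjusted p = 0.0397). The rest of the stalk was not called: Rplp1 averaged 306.6 RPKM in beta and 362 in alpha cells (0.18, adjusted p = 0.356), and Rplp0, which anchors the stalk, 135 and 141.9 (0.01, adjusted p = 0.956).

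Among small subunit genes, Rps21 measured 92.57, 96.23 and 113.2 RPKM in beta and 151.2, 133.2 and 120.3 in alpha cells (0.37 ± 0.11, adjusted p = 0.0285), with the transdifferentiated libraries at 108.1 and 117.3. Rps24, a second gene of Diamond-Blackfan anaemia, measured 96.34, 95.8 and 101 RPKM in beta, 95.66 and 107.1 in transdifferentiated, and 126.1, 124.9 and 110.7 in alpha cells (0.28 ± 0.09, adjusted p = 0.039). In both genes the alpha libraries were the 3 highest of the 8. Among the 22 settings the call was lost in 2 for Rpl35a, 5 for Rpl30, 7 for Rps21, 8 for Rps24 and 8 for Rplp2. Of the 6 highest differences, 2 were not called: Rpl10, at 0.61 ± 0.25 (adjusted p = 0.0867), and Rps16, at 0.30 ± 0.13 (adjusted p = 0.0921).

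**Figure D4:**
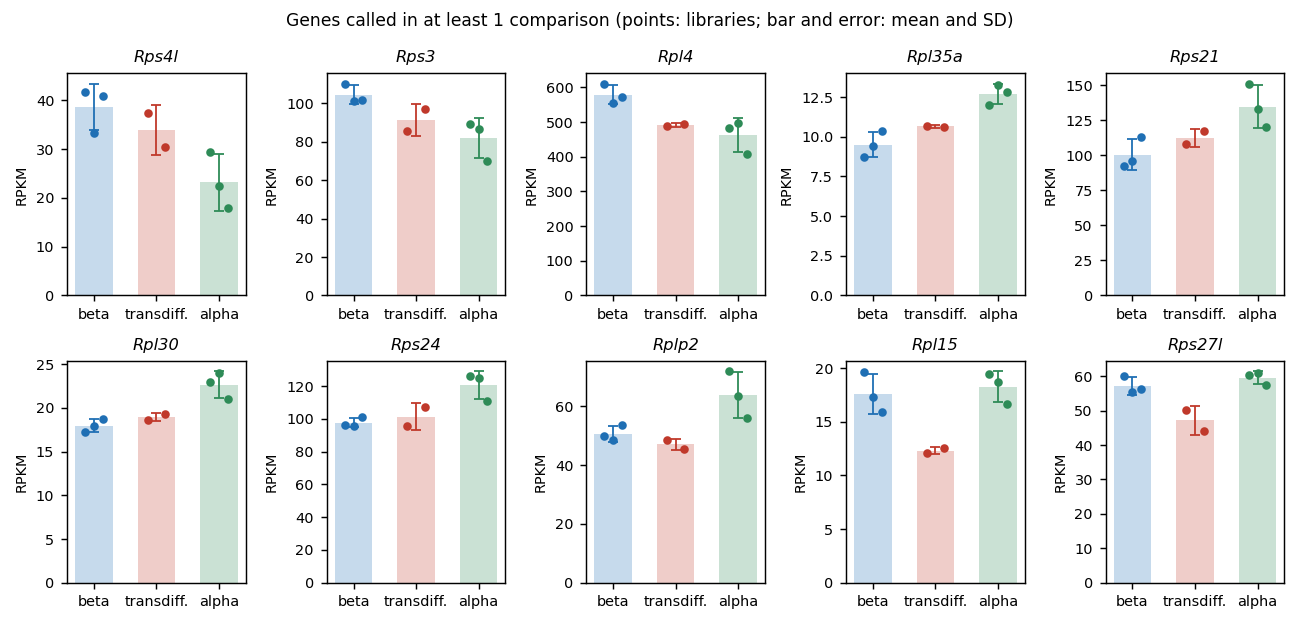
RPKM of 10 genes called in at least 1 comparison of cell groups; points are libraries, bars the group means and error lines the SD. For Rps4l, Rps3 and Rpl4 the alpha bars are the lowest, for Rpl35a, Rps21, Rpl30, Rps24 and Rplp2 they are the highest, and for Rpl15 and Rps27l the transdifferentiated bars are the lowest.

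The balance of higher and lower genes rested on the scaling. With the RPKM as deposited it was 5 to 5; with median-ratio scaling it was 6 higher and 1 lower, rescaled without the hormone genes 10 and 1, after quantile normalization 20 and 1, and with equal medians of the ribosomal protein genes 6 and 5. The median over all genes moved from -0.05 to 0.11 when the hormone genes were left out. Relative to it, the median of the ribosomal protein genes was 0.06 higher as deposited, 0.07 with either median-ratio scaling or without hormone genes, and 0.26 after quantile normalization. In a fit of genes averaging at least 10 RPKM, as deposited, the median of the ribosomal protein genes was 0.25 above that of all genes fitted. Leaving out 1 library gave 2 calls without beta 1, beta 3 or alpha 3, 4 without beta 2, 5 without alpha 2 and 6 without alpha 1. A fit without trend called 6 genes and one with array weights 17. Over all 13172 genes tested, these fits called 5483 and 8202, and those with 1 beta or alpha library left out 3110 to 5253.

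The transdifferentiated cells were compared with beta cells, the type whose reporter they share. Of the 51 genes 1 was called (1.96%), and it was lower, against 12% of all genes tested (9.1% higher, 2.9% lower) and 10.9% of genes averaging at least 10 RPKM. At an unadjusted p under 0.05 by limma there were 7, against 4135 of all 13172 genes tested. The gene was Rpl15, a large subunit protein, at 12.07 and 12.51 RPKM in transdifferentiated cells, 19.59, 17.33 and 15.91 in beta and 19.48, 18.67 and 16.69 in alpha cells. Both transdifferentiated libraries lay below all 6 others, on 36 and 65 reads; the exact Poisson intervals of these reads, which cover counting error only, ran from 8.452 to 16.71 and from 9.654 to 15.94 RPKM. The difference from beta cells was -0.49 ± 0.12 (SE, adjusted p = 0.0419). This SE does not allow separately for the counting error of so few reads. That call was lost in 14 of 22 alternative settings, with adjusted p between 0.0226 and 0.238, while the difference stayed between -0.62 and -0.42. It was lost whichever of the 8 libraries was left out. None of the 51 was called without beta 1, beta 3, transdifferentiated 1, alpha 1 or alpha 2, whereas Rpl10 was called higher without beta 2 (adjusted p = 0.0443) or transdifferentiated 2 (0.0402), and Rps7 lower without alpha 3 (0.0496). The promoter of Rpl15 carries the longest pyrimidine run of those printed. Longer runs, of 21, 20 and 18 bases, stood at Rpl7a, Rpl34 and Rpl35, which were not called against beta cells.

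The largest difference from beta cells was not called. Rpl10 measured 16.83 and 11.46 RPKM in transdifferentiated, 5.195, 9.105 and 6.386 in beta, and 9.807, 9.033 and 12.75 in alpha cells. Both transdifferentiated libraries were above the beta libraries, with a difference of 1.003 ± 0.271 (adjusted p = 0.0548), and 1 of them was within the range of the alpha libraries. It was called in 4 of 22 settings, and the difference ran from 0.64 without transdifferentiated 1 to 1.44 without transdifferentiated 2. With a beta mean of 6.895 RPKM, Rpl10 met the rule only through its transdifferentiated (14.14) and alpha (10.53) means, so its direction here was favoured by the choice. Its values rested on 43 and 51 reads, and 85.4% of its 50-base stretches occur elsewhere (chrX:74270812-74273135). The other genes at the top were Rps16 at 0.34 (adjusted p = 0.137), Rpl37 at 0.34 (0.0928), Rpl3 at 0.21 (0.25), Rpl34 at 0.19 (0.259) and Rpl35a at 0.15 (0.36).

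At the lower end, Rps7, a small subunit protein that also binds Mdm2, measured 23.41 and 24.96 RPKM in transdifferentiated, 32.68, 37.88 and 31.93 in beta and 36.98, 34.95 and 27.9 in alpha cells. Both transdifferentiated libraries were the lowest of the 8, with a difference from beta cells of -0.50 ± 0.14 (adjusted p = 0.0633). It was followed by Rps27l at -0.29 (adjusted p = 0.0743), Rpl32 at -0.28 (0.187), Rps25 at -0.27 (0.0971) and Rpl4 at -0.25 (0.191). Transdifferentiated and beta libraries did not overlap in 15 genes (7 higher and 8 lower), against 46.3% of all genes tested (31% and 15.3%). With median-ratio scaling 4 genes were called, all lower, and 1 lower without the hormone genes or after quantile normalization. Equal medians of the ribosomal protein genes left 0, as did limma voom on recovered reads, in fits that called 1310 and 676 of all genes tested.

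Against alpha cells, their labelled origin, the transdifferentiated cells differed in 6 of the 51 genes (11.8%), compared with 29.9% of all genes tested (23.2% higher, 6.67% lower) and 38.4% of genes averaging at least 10 RPKM. Of these, 3 were higher, among them Rps4l (0.61 ± 0.16, adjusted p = 0.0275). The values of Rps4l given above placed both transdifferentiated libraries above the alpha libraries.

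The 3 genes lower than in alpha cells were Rpl15 (-0.56 ± 0.12, adjusted p = 0.0135), Rplp2 (-0.40 ± 0.09, adjusted p = 0.0171) and Rps27l (-0.33 ± 0.09, adjusted p = 0.0308). Rps27l, a close relative of Rps27 known as a target of p53, measured 50.22 and 44.09 RPKM in transdifferentiated, 60.16, 55.32 and 56.23 in beta, and 60.35, 60.97 and 57.38 in alpha cells. Both transdifferentiated libraries were again the lowest. The other extremes were not called: Rps7 at -0.43 (adjusted p = 0.0565), Rps26 at -0.42 (0.141), Rps15a at -0.37 (0.135), Rpl10 at 0.39 (0.318), Rpl37 at 0.32 (0.0764) and Rpl7a at 0.30 (0.107). The difference of Rpl10 was -0.04 without transdifferentiated 1. Libraries of both groups did not overlap in 14 genes (5 higher and 9 lower), against 53% of all genes tested (40% and 13.1%).

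Here, too, the split moved with the scaling: 3 higher and 3 lower as deposited or with equal medians of the ribosomal protein genes, 0 and 12 with median-ratio scaling or without the hormone genes, and 0 and 16 after quantile normalization. The median over all genes moved from 0.17 as deposited to -0.04 with median-ratio scaling and -0.05 after quantile normalization. Relative to the median of all genes, the median of the ribosomal protein genes was -0.21 as deposited, -0.23 with median-ratio scaling or without hormone genes and -0.20 after quantile normalization. Relative to genes averaging at least 10 RPKM, in a fit of those genes as deposited, it was -0.28. Rpl15 and Rplp2 kept their calls under all 4 other scalings and Rps27l under 3 of them (adjusted p = 0.0567 with equal medians), whereas Rps4l kept its call under 1, that with equal medians. Limma voom on the recovered reads called 0 of the 51 genes, a fit of these groups alone 1 and array weights 1. Over all genes tested, these fits called 2259, 2267 and 1990. The split also moved with single libraries: it was 0 higher and 7 lower without transdifferentiated 2, 1 and 1 without transdifferentiated 1, 4 and 2 without alpha 1, 1 and 2 without alpha 2, and 0 and 4 without alpha 3. The call was lost in 12 of 22 settings for Rps4l, 11 for Rps27l, 4 for Rplp2 and 3 for Rpl15.

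**Figure D5:**
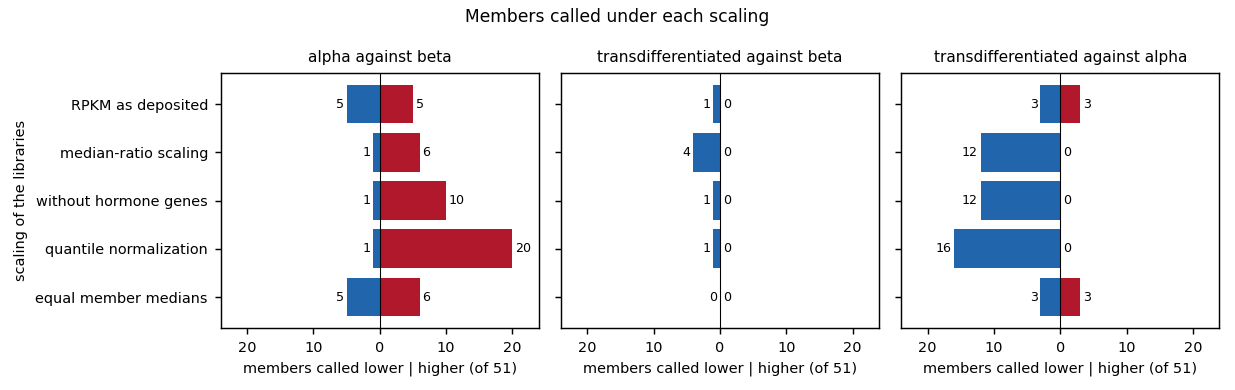
Number of the 51 genes called lower (blue, left) and higher (red, right) in each comparison of cell groups under 5 scalings of the libraries. Alpha against beta goes from 5 lower and 5 higher to 1 lower and 20 higher, and transdifferentiated against alpha from 3 and 3 to 16 lower and 0 higher.

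Sex was compared over all groups, with cell type in the fit. Limma called 0 of the 51 genes, and 0.0456% of all genes tested (6 genes). By limma, 5 of the 51 reached an unadjusted p under 0.05, against 683 of all 13172 genes tested. Limma voom also called 0, with 2 at an unadjusted p under 0.05. The median difference of female against male pools was -0.10, and 9 of the 51 genes lay above 0, against 0.01 and 7035 of 13172 over all genes tested. Without alpha 3 the median was -0.01 with 24 of 51 above 0, and with equal medians of the ribosomal protein genes it was 0.04 with 33 above 0. Of the X-linked genes, Rps4x differed by -0.23, Rpl39 by -0.24 and Rpl10 by 0.04 (adjusted p = 0.843, 0.843 and 0.974). Rpl36a, also X-linked, was below 10 RPKM.

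Genes with a close relative were set against it. Rpl36al, at 29.73 to 48.41 RPKM over all libraries, stands beside the X-linked Rpl36a at 1.619 to 3.369 RPKM. The ratio of Rpl36al to Rpl36a was 16.88 to 22.9 in the beta libraries, against 11.56 to 11.74 in the alpha and 11.62 and 17.37 in the transdifferentiated ones. Rpl36a was called higher in alpha than in beta cells (0.47, adjusted p = 0.0335), while Rpl36al was not called (-0.10, adjusted p = 0.646). Rpl7l1, a relative of Rpl7 that falls outside the naming rule, was called lower in alpha cells (-0.45, adjusted p = 0.016). Its ratio to Rpl7 was 0.5581 to 0.5772 in the beta libraries, against 0.3512 to 0.3949 in the alpha and 0.4191 and 0.5259 in the transdifferentiated ones. The ratio of Rpl22l1 to Rpl22 overlapped between beta and alpha libraries, at 0.5219 to 0.7004 and 0.5453 to 0.6805, and was 0.7144 and 0.8035 in the transdifferentiated libraries, above both. Rps27l exceeded Rps27 in every library, by 14.24 to 18.71 times outside transdifferentiated 1, where Rps27 had 1 read. Of the 50-base stretches of Rps27, 98.6% also occur in other genes, against 22.4% in Rps27l. For Rpl36a and Rpl36al these shares are 85.5% and 24.9%. Ratios of RPKM between relatives are therefore not ratios of their mRNAs, and the part of shared sequence in them was not tested. Rpl3l and Rpl39l averaged 0.1644 and 0.03539 RPKM, and Rpl10l was listed at 0 in every library.

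Ribosomal protein genes often carry genes of small nucleolar RNAs, guides of ribosomal RNA modification, in their introns. In GENCODE M21 this held for 19 of the 51 genes (37.3%): 4 of the 5 genes called lower in alpha cells, Rps3 and Rpl4 among them, and 2 of the 5 called higher. The median alpha against beta difference was -0.10 in these 19 genes and 0.03 in the other 32. This split was noticed after the values had been seen and was not tested.

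Among the 33 names below 10 RPKM, 28 were tested, and 12 were higher and 0 lower in alpha than in beta cells (median 0.41), with 10 to 13 higher and 0 lower under the other 4 scalings. These are 42.9% and 0%, against 16.9% and 26.7% of all genes tested. Rpl9 measured 1.183, 1.395 and 0.928 RPKM in beta, 3.651 and 2.845 in transdifferentiated, and 2.991, 3.336 and 4.536 in alpha cells, a difference of 1.36 between alpha and beta (adjusted p = 0.00147). Rps27a, which is made as a fusion with ubiquitin, measured 3.533, 3.697 and 2.688 RPKM in beta, 4.075 and 5.38 in transdifferentiated and 4.987, 5.325 and 6.079 in alpha cells (0.76, adjusted p = 0.00142). In both genes all alpha libraries exceeded all beta libraries. Transdifferentiated cells were higher than beta cells in 3 genes, namely Rpl10a (0.68, adjusted p = 0.0244), Rps27a (0.51, 0.0344) and Rpl9 (1.20, 0.0177), and lower in 0 (10.7% higher, against 9.1% of all genes tested); with median-ratio scaling or quantile normalization 2 were higher and 1 lower. They were lower than alpha cells in 3, namely Rpl17 (-0.60, adjusted p = 0.0123), Rps12 (-0.60, 0.0147) and Rps13 (-0.73, 0.0245), and higher in 0 (10.7% lower, against 6.67% of all genes tested); other scalings gave 4 to 10 lower. In the transdifferentiated libraries these rested on few reads, 5 and 11 for Rpl17, 3 and 7 for Rps12, and 5 and 12 for Rps13. These low genes share a median of 70% of their 50-base stretches with other genes.

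The mitochondrial ribosome is encoded by separate nuclear genes. Of 76 such genes tested, 27 were lower and 2 higher in alpha than in beta cells, with 11 to 23 lower and 1 to 2 higher under the other scalings. The share called lower, 35.5%, lies between the 26.7% of all genes tested and the 42% of genes averaging at least 10 RPKM. The median difference was -0.27, against -0.05 over all genes tested and 0.01 in the cytosolic genes. In a fit of genes averaging at least 10 RPKM, 42 mitochondrial ribosomal protein genes had a median of -0.35, with 22 lower and 0 higher. All 4854 genes of that fit had a median of -0.24, with 2102 lower and 636 higher. Mrps14 (-0.87, adjusted p = 0.00114), Mrpl42 (-0.86, 0.00328), Mrpl12 (-0.84, 0.00902) and Mrps34 (-0.77, 0.00383) differed most. Their summed RPKM was 1138 ± 50.73 in beta (SD, n = 3), 1118 ± 59.57 in transdifferentiated (n = 2) and 932.2 ± 67.78 in alpha cells (n = 3), and every alpha library was below the rest. Against alpha cells, 12 were higher and 1 lower in transdifferentiated cells as deposited, and 10 and 1 with equal medians of the ribosomal protein genes. The split was 1 and 3 with median-ratio scaling or without hormone genes and 1 and 4 after quantile normalization. Against beta cells 1 was higher (Mrps6, 0.72, adjusted p = 0.0245) and 2 were lower (Mrps34, -0.83, 0.0178, and Mrps27, -0.67, 0.0148).

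Of 40 initiation factor genes, 18 were lower and 1 higher in alpha than in beta cells; this became 13 and 3 with median-ratio scaling, 8 and 3 without hormone genes and 8 and 6 after quantile normalization. The share called, 47.5%, is near the 43.6% of all genes tested. Eif3c (-1.52, adjusted p = 0.000517), a subunit of the scaffold that loads the small subunit, and Eif2b5 (-0.89, 0.000907), the catalytic subunit of the exchange factor for initiation factor eIF2, were among them. Transdifferentiated cells had 10 of these genes higher and 0 lower than alpha cells, but 2 and 3 with median-ratio scaling, and 0 higher and 3 lower than beta cells. Of 10 elongation factor genes, 1 was higher and 5 lower in alpha than in beta cells, or 1 and 4 with median-ratio scaling. The share called as deposited was 60%, against 43.6% of all genes tested. Eef1a2, the form of the tRNA-delivering factor found in neurons and muscle, was higher by 6.08 in alpha (adjusted p = 1.49e-05) and by 3.91 in transdifferentiated cells (0.0025), each against beta cells. Eef2, which moves the ribosome along and has a TOP mRNA, was also lower in alpha cells (-0.54, adjusted p = 0.00241).

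The other lists related to ribosomal proteins went as follows. Of 20 other genes with TOP mRNAs tested, 1 was higher and 6 lower in alpha than in beta cells (3 and 4 with median-ratio scaling). Limma called 0 between transdifferentiated and beta cells, where 2 had an unadjusted p under 0.05, and 4 were higher and 0 lower than in alpha cells, which became 1 and 2 with median-ratio scaling. Ribosomal proteins outside the naming rule (6 tested) included Rps3a1, at 55.24 to 69.75 RPKM over all libraries, with 2 lower in alpha cells (Rsl24d1, -0.62, adjusted p = 0.0134, and Rpl7l1), or 1 higher and 1 lower with median-ratio scaling. Rsl24d1 was also lower in transdifferentiated than in beta cells (-0.71, adjusted p = 0.0337). Of 50 ribosome assembly genes, 2 were higher and 15 lower in alpha than in beta cells, among them the small subunit assembly factors Ltv1 (-0.89, adjusted p = 0.000405) and Bysl (-0.70, 0.00443); without hormone genes the split was 5 and 4. The share called lower was 30%, near the 26.7% of all genes tested. Transdifferentiated cells had 0 higher and 1 lower of these genes against beta cells (Grwd1, -0.54, adjusted p = 0.0337) and 2 and 2 against alpha cells (0 and 5 with median-ratio scaling).

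Of 26 genes tested that control translation and growth, 1 was higher and 12 lower in alpha than in beta cells, with 7 to 10 lower and 1 to 3 higher under the other scalings. The share called was 50%, against 43.6% of all genes tested and 54.2% of genes averaging at least 10 RPKM. Eif4ebp1, the mTOR target that blocks the cap-binding factor, was lower in alpha cells (-2.80, adjusted p = 0.00062). Atf4, a transcription factor of the amino acid and stress response, measured 407, 300.8 and 312.1 RPKM in beta, 229.3 and 304.8 in transdifferentiated, and 125.4, 101.2 and 102.7 in alpha cells (-1.58, adjusted p = 0.000398 for alpha against beta). All alpha libraries were the lowest. Ddit4 and Sesn2, inhibitors of mTOR signalling, were lower in alpha cells as well (-1.03, adjusted p = 0.000249, and -0.97, 0.00429). Against alpha cells, 10 of these genes were higher in transdifferentiated cells and 0 lower, Eif4ebp1 by 2.13 (adjusted p = 0.00496) and Atf4 by 1.25 (0.00288); the counts were 3 or 4 higher and 1 lower with median-ratio scaling, without hormone genes and after quantile normalization. Against beta cells 1 was higher and 1 lower.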

How the data were processed

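The RPKM values deposited by the authors cover 46959 genes in 8 libraries. The mouse build GRCm38.p4 and the tools edgeR 3.14.0, featureCounts and STAR 2.5 are named per the submitters' processing notes. The annotation and the treatment of reads with several matches were not given in the sources used here. Libraries were prepared, per the labels' protocols, with the TruSeq RNA kit v2. That kit keeps no strand, so that overlapping genes on opposite strands cannot be told apart.

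Each gene's RPKM values are multiples of what 1 read is worth, which gave back whole reads for all 26786 genes above 0, within 0.01 of a read plus a share of 2e-08 of the reads. Exon lengths of GENCODE M21 gave whole reads for 78.5% of the 25353 such genes matched by symbol, and for 6874 genes the length was solved from the steps. Their sums match the library sizes behind the RPKM (ratio 1). There were 4 entries with repeated names, which were left out, and 0 columns were not used.

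Differences were fitted with limma 3.58.1 (lmFit, eBayes with trend) in R 4.3.3 after adding 0.5 to each RPKM and taking log2. The fit held 13172 genes with at least 1 RPKM in at least 2 of 8 libraries. Group and sex were the terms of 1 fit of all libraries, p-values were adjusted by Benjamini-Hochberg over all genes tested, and genes with an adjusted p under 0.05 are said to be called. Fold changes on this scale understate those of low genes. The fit gave each gene 1 spread shared by all libraries, without weights for their depth. Its SE, intervals and p-values therefore do not allow separately for the larger counting error of the transdifferentiated libraries. The steps were tested on simulated data. Alternatives changed the pseudocount, the filter, the scaling, the terms, the variance model, the test, the libraries fitted and, in turn, each library.

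The members and the gene lists, written from general knowledge, were chosen with earlier results of these data known. Genes named are the members with the 6 highest and 6 lowest differences, all called members, the highest and lowest levels, those next to the threshold, paralogs, the P stalk, X-linked members, and up to 4 genes per other list; the values of some of these genes are not reported here, and counts include them. Nothing says whether replicates came from separate pools. The titles of beta 1 and beta 2, both female, share a number, as do those of alpha 1 and alpha 2, both male. A letter b is carried by the titles of beta 2 and 3 and alpha 2 and 3, and not by the other libraries. The 3 libraries of the beta and alpha groups may therefore not be 3 separate pools. The spread behind the p-values may then be partly technical.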

Additional observations from a re-analysis of the deposited data

How the results depend on the processing

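No paired analysis was run. The replicate numbers of the groups are in accession order and do not name pairs. Per the design text the alpha and beta cells came from the same islets as the transdifferentiated cells, pooled by sex, and the sex term of the fit accounts for that grouping only. Over 22 alternatives, 37 results on single genes gave 814 values, of which 648 kept their direction and side of the threshold, 130 lost the call, 34 gained it and 2 reversed: Rpl32 in alpha against beta (0.016 after quantile normalization, adjusted p = 0.913) and Rpl10 in transdifferentiated against alpha (-0.043 without transdifferentiated 1, adjusted p = 0.934, and 0.753 without transdifferentiated 2). Of 17 called results, 1 kept its call throughout: Rps4l, the entry listed as a pseudogene, in alpha against beta. The number of genes called in alpha against beta, 10, became 5 with no filter on low values, 21 after quantile normalization, 6 without a trend and 17 with array weights, and ran from 2 to 12 when 1 library was left out. In transdifferentiated against beta, 1 became 4 with median-ratio scaling, 3 with no sex term or with the letter b as a term, and 0 with no filter, equal medians of the ribosomal protein genes, no trend, array weights, limma voom or only the groups compared (0 to 1 with 1 library left out). In transdifferentiated against alpha, 6 became 12 with median-ratio scaling or without hormone genes, 16 after quantile normalization, 1 with array weights or only the groups compared, and 0 with limma voom (2 to 7 with 1 library left out). Where this leaves 1 transdifferentiated library, that library is assumed to vary like the other groups. Female against male stayed at 0 in every setting run. Calls over all 13172 genes tested moved with the settings as well. In alpha against beta, 5743 became 5480 after quantile normalization, 5483 without a trend and 8202 with array weights. In transdifferentiated against beta, 1580 became 676 with limma voom, 163 with array weights and 0 with only the groups compared. The summed RPKM without hormone genes was 5503 in beta, 5015 in transdifferentiated and 6239 in alpha cells, and 3790 in transdifferentiated cells with median-ratio scaling. The sum as deposited was also taken with 1 library left out. It then ran from 4402 to 4553, 4035 to 4360 and 4213 to 4736 in beta, transdifferentiated and alpha cells. The causes were not tested. The transdifferentiated libraries limit all their comparisons: they held a median of 62 and 126 reads per gene, and a gene that was not called is not shown to be equal.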

Other observations

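Of 270 pseudogenes of ribosomal proteins, named Rpl or Rps with a number and -ps, 17 passed the filter of the test. In alpha against beta cells 1 of these was higher and 0 lower, as against 0 and 1 in transdifferentiated against beta cells, and 1 and 2 in transdifferentiated against alpha cells by limma. At an unadjusted p under 0.05 by limma there were 2, 5 and 4, against 6878, 4135 and 5498 of all 13172 genes tested. Other markers were at low levels: endothelial markers (8 genes) summed to 3.429 to 5.57 RPKM in beta, 5.87 to 12.8 in transdifferentiated and 4.552 to 7.575 in alpha libraries. Stellate and fibroblast markers (8 genes) summed to 0.4703 to 1.242, 1.138 to 2.99 and 2.17 to 2.777 RPKM, with Lum at 0 in transdifferentiated and Pdgfra at 0 in alpha libraries. Proliferation markers (10 genes, 4 tested) summed to 21.51 to 30.34, 24.42 to 25.82 and 14.27 to 16.55 RPKM, with 3 of the 4 lower in alpha cells than in beta cells and 2 higher in transdifferentiated than in alpha cells.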
